A study of Mus musculus with 24 samples.

Results

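Expression of 10 transcription factors of the mammary lineages, Elf5, Gata3, Foxa1, Stat5a, Stat5b, Ehf, Elf3, Sox9, Sox10 and Tbx3, was examined in tumors of PyMT mice and in normal glands of FVB mice. The 10 genes were taken by symbol from the 37991 genes of the count table, and all 10 were among the 14918 genes that passed the filter on low counts (a CPM, the count scaled to library size, no lower than 1 in 12 or more of the 24 samples). Female PyMT mice were heterozygous for a transgene of polyoma virus middle T antigen, driven by the mouse mammary tumor virus promoter, which is active in mammary epithelium, on the FVB background, and FVB females of the same age without the transgene served as controls. Each genotype had 3 samples at week 6 (hyperplasia in the PyMT mice), week 8 (adenoma or mammary intraepithelial neoplasia), week 10 (early carcinoma) and week 12 (late carcinoma). The PyMT samples were labelled mammary gland at week 6 and tumor from week 8 on, and all samples were whole tissue. At each week the tissue came from 3 PyMT and 3 FVB mice.

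The mammary epithelium has a basal layer of contractile cells and a luminal layer. Luminal cells fall into hormone-sensing cells, which carry the estrogen and progesterone receptors, and secretory cells, which descend from luminal progenitors and make milk in the alveoli of pregnancy and lactation. Foxa1, a forkhead protein, and Tbx3, a T-box protein, belong to the hormone-sensing program, Gata3 maintains luminal cells in general, and Elf5 with Stat5a and Stat5b, which relay prolactin and growth hormone signals, directs alveolar differentiation. Ehf and Elf3 are ETS proteins of epithelia related to Elf5, Sox9 is known from luminal progenitors and stem-like cells, and Sox10 from fetal-like and basal or progenitor cells of the gland and from neural crest cells such as Schwann cells and melanocytes.

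Total counts ran from 6969375 to 13516601 per sample. In 13 of the 24 libraries (6 PyMT and 7 FVB, including every PyMT sample of week 6 and every FVB sample of week 10) the number of genes at a given count peaked at 8 to 25 counts, the packet size below. Low counts there may stand for few independent molecules, which was not tested. FVB week 10 replicate 3 and PyMT week 8 replicate 2 had the most genes at 0 (4.396% and 2.869% of 3799 mid-level genes). The tissues differed in makeup. The summed normalized count of 10 epithelial markers was 22455 to 42380 in PyMT and 4676 to 20885 in FVB samples, without overlap, while that of 8 adipocyte markers was 1014 to 15457 in PyMT and 46492 to 129895 in FVB samples. The summed normalized count of 8 skeletal muscle markers was 119815 to 538533 in 4 FVB libraries (week 6 replicates 1 and 2, week 10 replicate 3 and week 12 replicate 1). It was 30407 and 18852 in PyMT week 6 replicates 1 and 2 and 27156 in PyMT week 10 replicate 3. All other libraries of both genotypes had 5493 or less.

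Elf5, the ETS factor of alveolar differentiation (ENSMUSG00000027186, mm9 chr2:103251845-103291146, plus strand), was higher in PyMT than in FVB tissue at all 4 weeks. Foxa1 (ENSMUSG00000035451, mm9 chr12:58641618-58647108, minus strand) was lower at all 4 weeks. Their promoters are shown because these genes moved in opposite directions. The sequences are the 250 bases before the RefSeq start sites, on GRCm38.p6, which is not the build of the counts (mm9), at chr2:103411848-103412097 and chr2:103423818-103424067 for the 2 starts of Elf5, and at chr12:57546112-57546361 (minus strand) for Foxa1. Capitals mark a SOX motif in the first and a forkhead motif in the last.
Elf5 start 1: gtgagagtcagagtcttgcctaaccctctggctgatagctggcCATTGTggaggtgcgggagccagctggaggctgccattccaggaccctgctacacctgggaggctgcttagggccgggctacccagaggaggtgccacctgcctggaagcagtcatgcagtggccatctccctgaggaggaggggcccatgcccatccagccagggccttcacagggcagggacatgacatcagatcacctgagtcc
Elf5 start 2: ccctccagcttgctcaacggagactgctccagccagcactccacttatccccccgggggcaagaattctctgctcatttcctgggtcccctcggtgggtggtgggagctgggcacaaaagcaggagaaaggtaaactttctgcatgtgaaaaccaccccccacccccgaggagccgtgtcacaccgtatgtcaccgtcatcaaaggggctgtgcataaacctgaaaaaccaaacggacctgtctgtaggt
Foxa1: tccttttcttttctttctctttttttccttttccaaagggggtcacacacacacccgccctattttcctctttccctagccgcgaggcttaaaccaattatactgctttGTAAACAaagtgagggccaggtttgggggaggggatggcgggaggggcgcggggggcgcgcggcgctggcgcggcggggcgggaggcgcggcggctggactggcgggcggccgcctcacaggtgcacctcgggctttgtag

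One motif for each protein family was searched on both strands of these windows, and no matches overlapped. The STAT motif was TTCNNNGAA, held by 7.02% of 32851 promoters of the same length. The motif for GATA factors was AGATAA, held by 9.99% of them, and the ETS motif was AGGAAG, held by 29.5%. The forkhead motif was TGTTTAC, held by 3.17%, the SOX motif ACAATG, held by 10.7%, and the T-box motif AGGTGTGA, held by 1.12%. RefSeq entries matched 6 of the 10 genes (Elf5, Gata3, Foxa1, Stat5a, Stat5b and Elf3, with 9 start sites), and none matched for Ehf, Sox9, Sox10 and Tbx3. The SOX match of Elf5 lay 207 bases before its first start, and the forkhead match of Foxa1 lay 141 bases before its own start. Stat5a had an ETS match 96 bases and a T-box match 61 bases before its first start and an ETS match 10 bases before its second, and Stat5b had an ETS match 57 bases before 1 of its 2 starts. No window of Gata3 or Elf3 held any of these letters. A match is a string of letters, and no binding was measured.

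The normalized count (count over the DESeq2 size factor of its library) of Elf5 in PyMT samples was 4713, 2812 and 5097 at week 6, 4121, 4099 and 3894 at week 8, 3540.2, 3472 and 4819 in week 10 tumors, and 3445, 3272 and 2963 in those of week 12. In FVB samples it was 688, 835 and 883 at week 6, 455, 1204 and 933 at week 8, 779.8, 1018 and 418 at week 10, and 509, 1069 and 726 at week 12. Every PyMT sample lay above every FVB sample, also across weeks. The log2 fold change of PyMT over FVB was 2.39 ± 0.27 (standard error, SE), 2.24 ± 0.34, 2.47 ± 0.35 and 2.12 ± 0.27 in weeks 6, 8, 10 and 12 (edgeR quasi-likelihood test, adjusted p = 0.00223, 0.00910, 0.00303 and 0.00109). Over the mean of the 4 weeks, fitted on all 24 samples, Elf5 was 4.90-fold higher (log2 2.29 ± 0.17, adjusted p = 7.79e-10). In bulk tissue, more cells of a type and more RNA per cell cannot be told apart, here and for each gene below.

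Ehf, the epithelial ETS factor (ENSMUSG00000012350, mm9 chr2:103103590-103143435, minus strand), lies on the same chromosome as Elf5, with 108.4 kb and 2 annotated genes between them. Its normalized count in PyMT samples was 5029.9, 6065 and 5711 at week 6, 6149.7, 8761 and 4455 at week 8, 5348, 6958 and 7459 at week 10, and 6855, 6664 and 7311 at week 12. In FVB samples it was 702, 2635 and 2533 at week 6, 728, 2763 and 2439 at week 8, 1462, 2596 and 383 at week 10, and 483, 1649.7 and 645 at week 12. The genotypes did not overlap, and the FVB samples spread widely within a week. The log2 fold change was 2.08 ± 0.29 over the 4 weeks (adjusted p = 4.76e-06). The call held at week 12, at 2.95 ± 0.44 (adjusted p = 0.00206), and for week 10, at 2.20 ± 0.59 (adjusted p = 0.0412), while the values of 1.51 ± 0.44 at week 6 and 1.71 ± 0.48 at week 8 missed the threshold (adjusted p = 0.0617 and 0.0609). The week 10 call was lost without FVB replicate 1 or without any 1 of the 3 PyMT samples (adjusted p = 0.0930 to 0.114). Without FVB replicate 2 the value was 2.87 at week 10 and 3.63 at week 12.

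Elf3, the other epithelial ETS factor (ENSMUSG00000003051, mm9 chr1:137150151-137155049, minus strand), did not share this pattern in its values. Its normalized count ran from 26.7 to 131 in PyMT samples (median 89.7) and from 22.7 to 134 in FVB samples (median 92.1). The groups overlapped at weeks 6, 8 and 12, and at week 10 all PyMT samples lay below all FVB samples. No week passed the test (smallest adjusted p = 0.446 at week 10), and the log2 fold change over the 4 weeks was -0.035 ± 0.27.

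Sox10 (ENSMUSG00000033006, mm9 chr15:78985343-78994920, minus strand) was the third gene that rose. Its normalized count in PyMT samples was 1328, 1475 and 1612 at week 6, 1552, 1707 and 1712 at week 8, 1827, 1219 and 2103 at week 10, and 1663, 1682 and 2293 at week 12. In FVB samples it was 269, 406 and 741 at week 6, 254, 905 and 836 at week 8, 566, 670.3 and 120.5 at week 10, and 301, 465 and 306 at week 12. The genotypes did not overlap at any week. The log2 fold change was 1.83 ± 0.24 over the 4 weeks (adjusted p = 1.91e-06). Week 12, with the smallest SE, gave 2.44 ± 0.24 (adjusted p = 0.000412). It passed at week 6 (1.64 ± 0.34, adjusted p = 0.0182), passed narrowly at week 10 (1.97 ± 0.56, adjusted p = 0.0499) and missed at week 8 (1.33 ± 0.42, adjusted p = 0.0846). The week 6 call was lost without FVB replicate 2, PyMT replicate 1 or PyMT replicate 3 (adjusted p = 0.0559 to 0.0761), and the week 10 call without any 1 sample other than FVB replicate 3 (adjusted p = 0.0618 to 0.143).

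Since Sox10 also marks Schwann cells and melanocytes, their markers were read beside it. Over the 4 weeks the Schwann cell markers Ngfr, a neurotrophin receptor, Egr2, a myelination factor, and Prx, periaxin, fell by 3.79, 1.98 and 1.09 on the log2 scale (adjusted p = 0.000890, 0.00432 and 0.00436). Mbp (log2 fold change -0.60 ± 0.19) and S100b (-0.61 ± 0.57) did not pass, and the ranges of normalized counts in PyMT and FVB samples overlapped for all 5, as for Ngfr (0 to 51.4 and 12.6 to 70.4). Cdh19, a cadherin, rose by 3.46 ± 0.30. The normalized count of Cdh19 was 167 to 1112 in PyMT and 12.4 to 105 in FVB samples. Foxd3 was at 0 in all 12 PyMT samples, and the median of Gfra3 over them was 0. In FVB samples their medians were 1.70 and 21.7 normalized counts, and neither gene passed the filter on low counts. Among 6 melanocyte markers Tyr was at 0 in all PyMT samples, Dct, Tyrp1, Mlana and Pmel had a median of 0 in them, and Mitf, the 1 marker tested, fell by 1.92 on the log2 scale. In FVB samples Tyr and Tyrp1 also had a median of 0, and the medians of Pmel, Mlana and Dct were 0.55, 1.70 and 5.19 normalized counts, so apart from Mitf these markers were near 0 in both genotypes. Sox9, of the same protein family (ENSMUSG00000000567, mm9 chr11:112643538-112649074, plus strand), had a normalized count of 247 to 726 in PyMT samples (median 487) and 139 to 602 in FVB samples (median 265). Its groups overlapped in 3 of the 4 weeks and separated at week 10. No week passed, though week 12 did without FVB replicate 2 (1.43, adjusted p = 0.00601, against 0.73 with it). Over the 4 weeks its log2 fold change of 0.64 ± 0.23 had an adjusted p of 0.0239 but stayed under the threshold of 1. Without the 4 FVB libraries rich in muscle RNA it was 0.40 (adjusted p = 0.195).

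**Figure D1:**
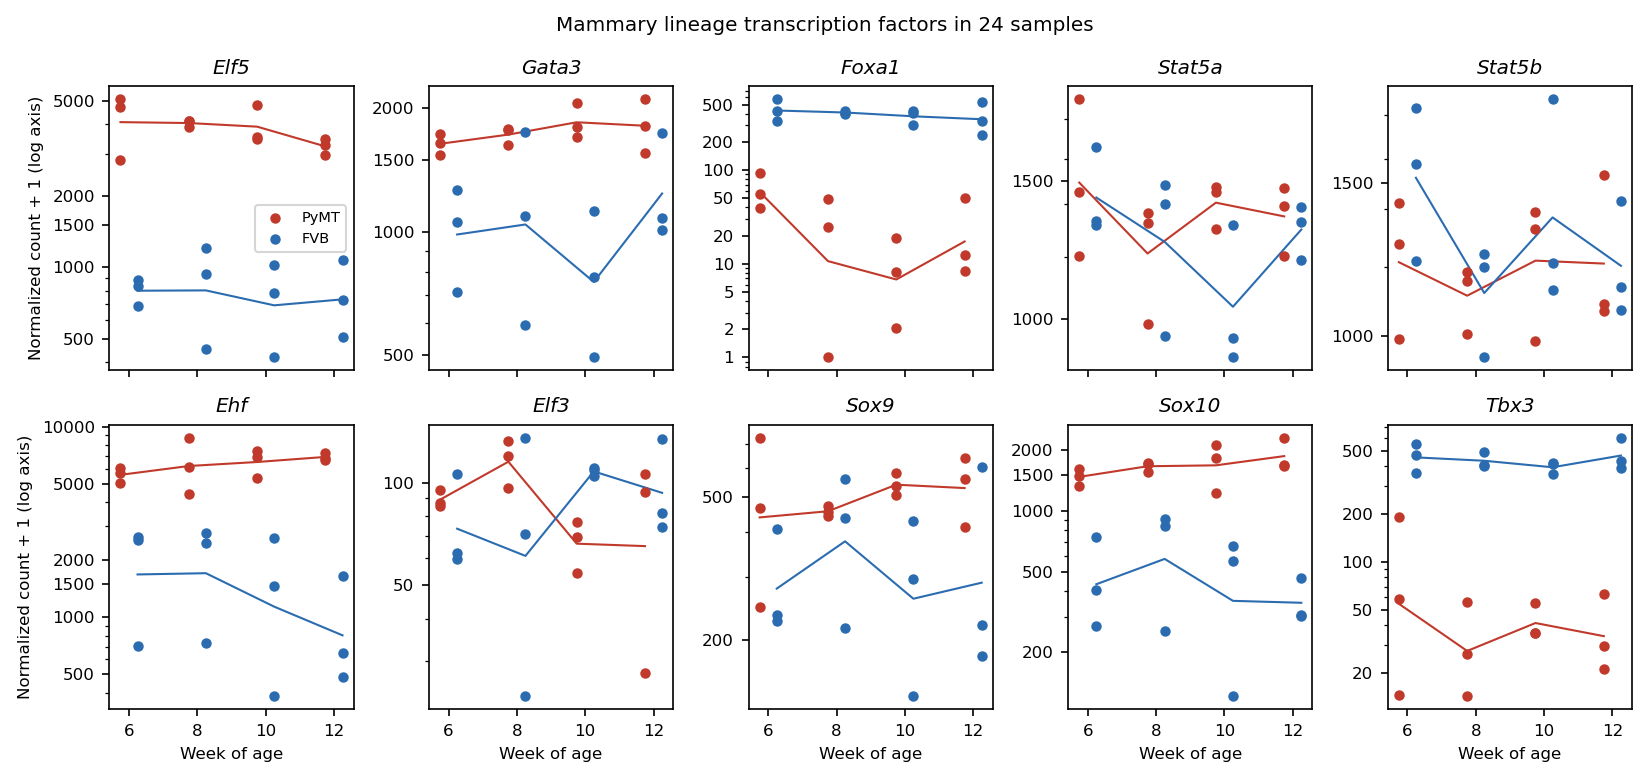
Normalized counts plus 1 (log axis) of the 10 genes against week of age, with a point for each of 12 PyMT (red) and 12 FVB (blue) samples and a line through the means of log2 values. Red points lie above all blue points of their week for Elf5, Ehf and Sox10 and below them for Foxa1 and Tbx3, and the points mix at every week for Stat5a and Stat5b.

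Foxa1 and Tbx3, the factors of the hormone-sensing program, fell. The normalized count of Foxa1 in PyMT samples was 38.3, 54.2 and 91.3 at week 6, 48.7, 0 and 23.5 at week 8, 7.12, 1.05 and 17.9 at week 10, and 11.3, 49.1 and 7.39 at week 12. In FVB samples it was 330.3, 575 and 425 at week 6, 410.0, 429 and 396 at week 8, 408, 422 and 305 at week 10, and 237, 538 and 331 at week 12. The highest PyMT value lay below the lowest FVB value. The raw counts behind the PyMT values were 0 to 161, against 176 to 745 in FVB samples, and the 0 came from a library with a packet size of 23. Over the 4 weeks Foxa1 was 16.7-fold lower in PyMT samples (log2 fold change -4.06 ± 0.43, adjusted p = 1.13e-07). The weekly log2 fold changes were -2.84 ± 0.41, -4.06 ± 1.00, -5.34 ± 0.78 and -3.99 ± 0.69 at weeks 6, 8, 10 and 12 (adjusted p = 0.00464, 0.0407, 0.00342 and 0.00423). The week 8 call was lost without any 1 sample other than PyMT replicate 2 (adjusted p = 0.0512 to 0.123). Its size depended on single PyMT libraries, at -4.99 without week 8 replicate 1, -6.41 without week 10 replicate 3 and -5.24 without week 12 replicate 2. In the 11 libraries without packets, Foxa1 stood at -3.37 over weeks 8 and 12. Replicate 3 was the only FVB library of week 8 in that fit.

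Tbx3 (ENSMUSG00000018604, mm9 chr5:120120678-120134733, plus strand) had a normalized count in PyMT samples of 57.9, 13.6 and 189 at week 6, 13.4, 25.3 and 54.7 at week 8, 54.3, 34.6 and 35.0 at week 10, and 28.8, 62.0 and 20.3 at week 12. In FVB samples it was 547, 469 and 363 at week 6, 489, 408 and 402 at week 8, 355, 409.8 and 416 at week 10, and 428, 604 and 390.4 at week 12. All PyMT samples lay below all FVB samples, and PyMT week 6 replicate 3 stood above the other PyMT samples. Over the 4 weeks Tbx3 was 9.49-fold lower (log2 fold change -3.25 ± 0.32, adjusted p = 3.41e-08). It passed in adenomas (-3.75 ± 0.52 at week 8, adjusted p = 0.00733), early carcinomas (-3.19 ± 0.35 at week 10, adjusted p = 0.000985) and late carcinomas (-3.63 ± 0.44 at week 12, adjusted p = 0.000842). At week 6 it stood at -2.37 ± 0.76 (adjusted p = 0.0849), and at -3.63 (adjusted p = 0.0266) without PyMT replicate 3. It was -4.49 without PyMT week 8 replicate 3 and -4.22 without PyMT week 12 replicate 2.

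Gata3, the zinc finger factor of luminal cells (ENSMUSG00000015619, mm9 chr2:9778705-9811661, minus strand), had a narrow range in PyMT samples, with a normalized count of 1539.7 to 2108 (median 1751). In FVB samples it ran from 493 to 1750.5 (median 1069). The groups separated at weeks 6 and 10 and overlapped at weeks 8 and 12. Gata3 passed at week 10, where PyMT values of 1799.9, 1706 and 2058 stood against FVB values of 775, 1121 and 493 (log2 fold change 1.27 ± 0.30, adjusted p = 0.0240). That call was lost without FVB replicate 1 or any 1 PyMT sample (adjusted p = 0.0630 to 0.0880). Over the 4 weeks the log2 fold change was 0.77 ± 0.16 (adjusted p = 0.000365), under the threshold of 1 and 1.02 when scaled by library size alone.

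Stat5a (ENSMUSG00000004043, mm9 chr11:100720665-100746483, plus strand) and Stat5b (ENSMUSG00000020919, mm9 chr11:100642045-100712038, minus strand) lie 8.6 kb apart. The normalized count of Stat5a was 984 to 1905 in PyMT (median 1379) and 894 to 1655 in FVB samples (median 1324). That of Stat5b was 985 to 1531 in PyMT (median 1169) and 942 to 1876 in FVB samples (median 1215). The genotypes overlapped at all 4 weeks for both genes. The log2 fold changes over the 4 weeks were 0.14 ± 0.10 for Stat5a (adjusted p = 0.269) and -0.11 ± 0.11 for Stat5b (adjusted p = 0.414), and Stat5b took the opposite sign with library size scaling (0.20). The log2 ratio of Stat5a to Stat5b ran from -0.24 to 0.94 in PyMT and from -0.99 to 0.44 in FVB samples.

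The transcripts of the 2 Stat5 genes share 608 stretches of 50 bases, 14.7% of those of Stat5a and 11.1% of those of Stat5b, so reads there could be counted for either gene or dropped, and their separate values are uncertain to that extent. No other pair of the 10 genes shares such a stretch. The longest identical run, of 324 coding bases over 3 exons, spans mm9 chr11:100735337-100736297 in Stat5a and chr11:100659055-100660015 in Stat5b. Its first 150 bases are shown because a read that lies within them matches both genes.
Stat5a and Stat5b: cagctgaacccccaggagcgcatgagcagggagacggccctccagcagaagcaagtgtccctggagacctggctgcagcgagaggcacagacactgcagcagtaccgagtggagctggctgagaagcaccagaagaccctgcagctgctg

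Of the other genes, exons of Gata3 overlap those of 9230102O04Rik on the same strand (77 bases) and of Gm13256 on the opposite strand (155 bases). Opposite-strand exon overlaps were also found between Stat5a and Stat3 (72 bases), Elf3 and Gm16606 (162 bases) and Tbx3 and Gm2301 (115 bases). The library kit marked the strand, but the strand setting of the counting was not given in the sources used here, so reads in these stretches may be shared.

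A gene was counted as higher or lower where its adjusted p was below 0.05 and it differed by more than 2-fold. At week 6, 3 of the 10 genes did so, 2 higher and 1 lower, beside 10.0% of all tested genes (3.58% higher and 6.46% lower). At week 8 the count was also 3, 1 higher and 2 lower, beside 9.95% of all genes (3.57% higher and 6.37% lower). The count was 6 at week 10, 4 higher and 2 lower, beside 13.9% of all genes (4.83% higher and 9.09% lower). It was 5 at week 12, 3 higher and 2 lower, beside 20.7% of all genes (7.75% higher and 13.0% lower). Without FVB replicate 1, or without any 1 PyMT sample, the week 10 count was 3. Over the mean of the 4 weeks 5 passed, 3 higher and 2 lower, against 8.70% of all genes higher and 17.5% lower (26.2% in either direction). The median log2 fold change of the 10 was 0.39, beside -0.028 over all tested genes. Among genes whose groups did not overlap at any week, Elf5, Ehf and Sox10 were above and Foxa1 and Tbx3 below. The share of all tested genes that separated in this way was not computed, so these separations are given as descriptions only.

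**Figure D2:**
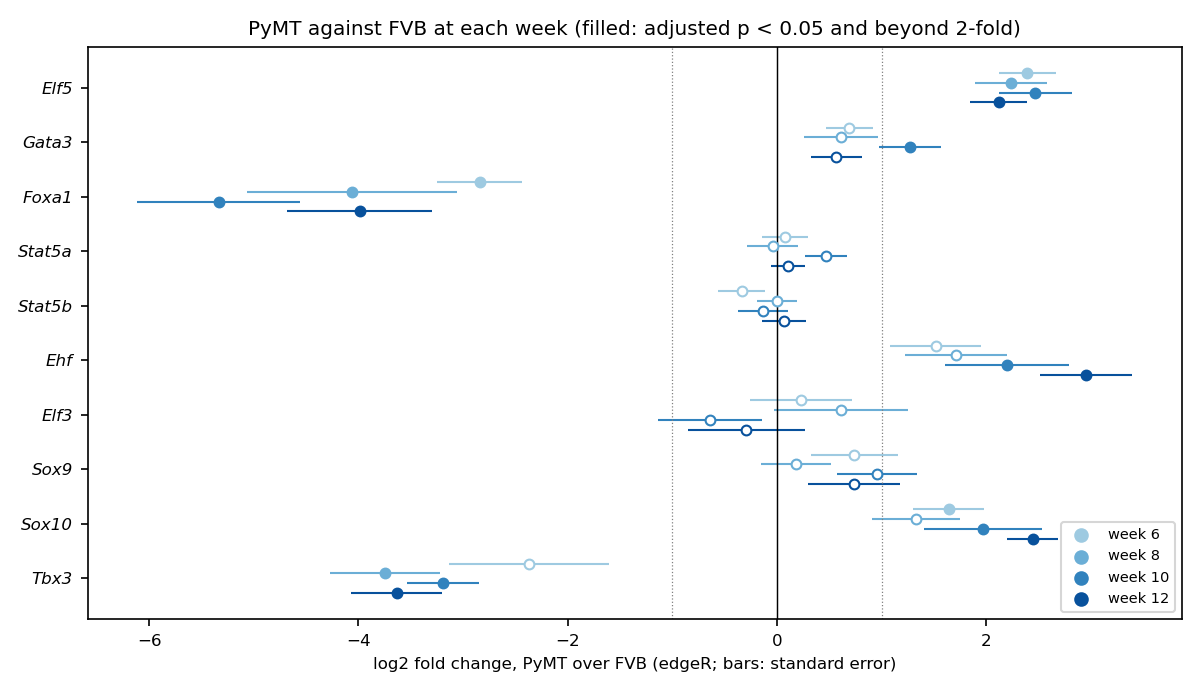
Log2 fold change of PyMT over FVB (edgeR, bars are SE, 3 against 3 samples a week) for each gene, from light (week 6) to dark blue (week 12), filled where the adjusted p was under 0.05 and the change beyond 2-fold. Elf5 sits between 2.12 and 2.47 at all weeks, Foxa1 between -5.34 and -2.84, and Stat5a and Stat5b near 0.

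Whether the genotype difference changed along progression was tested on all 24 samples. For the change from week 8 to week 10, 0 of the 10 genes passed in edgeR (adjusted p near 1 for each, and none with an unadjusted p below 0.05), beside 1 of all tested genes (0.00670%, and 533 genes at an unadjusted p below 0.05). For that from week 6 to week 12, 0 of the 10 and 0 of all tested genes passed in edgeR, with 0 and 691 at an unadjusted p below 0.05. The largest changes of the difference between weeks 6 and 12 were 1.42 ± 0.80 for Ehf, -1.27 ± 0.84 for Tbx3 and -1.15 ± 1.10 for Foxa1, all within 2 SE of 0. Within PyMT samples, week 12 against week 6 gave 0 passing genes of the 10 in edgeR (0 of all genes, with 0 of the 10 and 1004 of all at an unadjusted p below 0.05). Tbx3 had a log2 change of -1.26 ± 0.61 there (adjusted p = 0.752), which became 0.058 without PyMT week 6 replicate 3. Foxa1 stood at -1.44 ± 0.81 (adjusted p = 0.821). Within FVB samples none of the 10 passed in edgeR either (0 of all genes, with 0 of the 10 and 625 of all at an unadjusted p below 0.05), with Ehf at -1.11 ± 0.57 (adjusted p near 1).

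Levels were compared between genes only per kb of exon, as normalized counts per kb averaged over 12 samples. In PyMT samples Ehf came first at 1147 ± 213 (SD), followed by Elf5 at 656 ± 125 and Sox10 at 620 ± 110, a pair within their spread. Gata3 stood at 443 ± 44.0, Stat5b at 217 ± 33.5, Stat5a at 193 ± 30.8, Sox9 at 121 ± 29.3 and Elf3 at 43.0 ± 14.0. Stat5b and Stat5a were within their spread, and so were the last pair, Tbx3 at 9.15 ± 8.84 and Foxa1 at 9.15 ± 8.69. In FVB samples the order was less spread out. Ehf at 284 ± 173, Gata3 at 266 ± 99.7, Stat5b at 239 ± 53.6, Sox10 at 179 ± 93.7 and Stat5a at 178 ± 32.4 each lay within the spread of the next. Elf5 at 135 ± 42.2 and Foxa1 at 126 ± 29.4 formed another such pair, and Tbx3 at 82.0 ± 13.9, Sox9 at 79.4 ± 37.1 and Elf3 at 44.2 ± 16.5 followed. The order of neighbors depends on the length used. With the longest protein-coding transcript in place of all exons, a choice made after seeing the data, Elf5 at 1522 ± 291 stood beside Ehf at 1431 ± 266 in PyMT samples, a pair within their spread, and Stat5a at 354 ± 56.5 stood above Stat5b at 230.4 ± 35.6. In FVB samples Elf5 was then at 313 ± 97.9, beside Ehf at 355 ± 216, while Tbx3 and Foxa1 stayed last in PyMT samples.

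**Figure D3:**
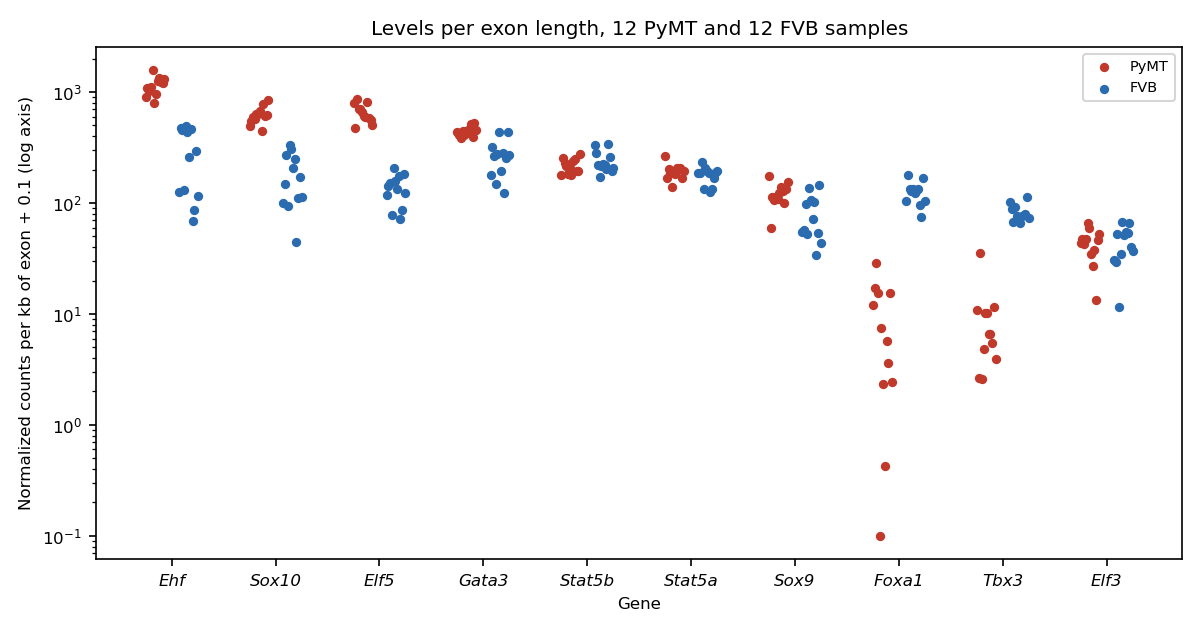
Normalized counts per kb of exon plus 0.1 (log axis) for the 10 genes, ordered by their mean over all 24 samples, with a point for each PyMT (red) and FVB (blue) sample. By exon length Ehf is at the top in PyMT samples (mean 1147), and the PyMT points of Foxa1 and Tbx3 fall below all FVB points of those genes.

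Within-sample ratios give the balance of 2 factors without a scaling between samples. The log2 ratio of Elf5 to Foxa1 (normalized count plus 1) was 5.67 to 10.7 in the PyMT samples with a Foxa1 count and 0.15 to 1.49 in FVB samples. That of Gata3 to Foxa1 was 4.06 to 9.70 in those PyMT samples and 0.53 to 2.14 in FVB samples, also without overlap. The upper ends rest on a single Foxa1 count, and in PyMT week 8 replicate 2, with a Foxa1 count of 0, the ratios are set by the added 1. The ratio of Elf5 to Ehf overlapped, at -1.30 to -0.094 in PyMT and -1.66 to 0.17 in FVB samples. For Sox10 to Sox9 it was 0.87 to 2.57 in PyMT and -0.37 to 0.94 in FVB samples, and for Ehf to Elf3 5.22 to 7.95 and 1.82 to 5.47.

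Because PyMT tissue held more epithelial RNA, the same comparison was repeated with each library scaled to the geometric mean of 10 epithelial markers. This moved the median of all tested genes to -1.41, and 69.3% of all genes passed (1.96% higher and 67.3% lower), so counts of passing genes carry little here. Relative to these markers Foxa1 had a log2 fold change of -5.30 ± 0.51 and Tbx3 of -4.68 ± 0.39 (adjusted p = 5.02e-09 and 6.22e-10), both further from 0 than the median. Elf5 was higher by 1.05 ± 0.18 (adjusted p = 2.02e-05) and passed, but with a list of 4 markers (Epcam, Cdh1, Krt8 and Krt18) it stood at 0.63 (adjusted p = 0.00235), under the threshold. It also fell just under 1 without FVB week 8 replicate 3, PyMT week 8 replicate 1 or PyMT week 10 replicate 3. Ehf at 0.96 ± 0.22 and Sox10 at 0.65 ± 0.20 kept a positive sign below the threshold of 1, which Ehf passed without replicate 2 of FVB week 6 (1.02), week 8 (1.06) or week 10 (1.06). Over 29 alternative settings of this scaling Ehf ran from 0.51 to 1.06 and Sox10 from 0.21 to 0.75. The largest adjusted p in edgeR was 0.0322 for Ehf and 0.326 for Sox10, so the Sox10 difference depended on the setting. Stat5a (-1.20 ± 0.21), Stat5b (-1.55 ± 0.26) and Elf3 (-1.35 ± 0.32) passed as lower, beside the median of -1.41 over all genes. Gata3 (-0.45 ± 0.17) and Sox9 (-0.57 ± 0.20) turned negative under this scaling, as Stat5a did. The count was 6 of 10, 1 higher and 5 lower.

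**Figure D4:**
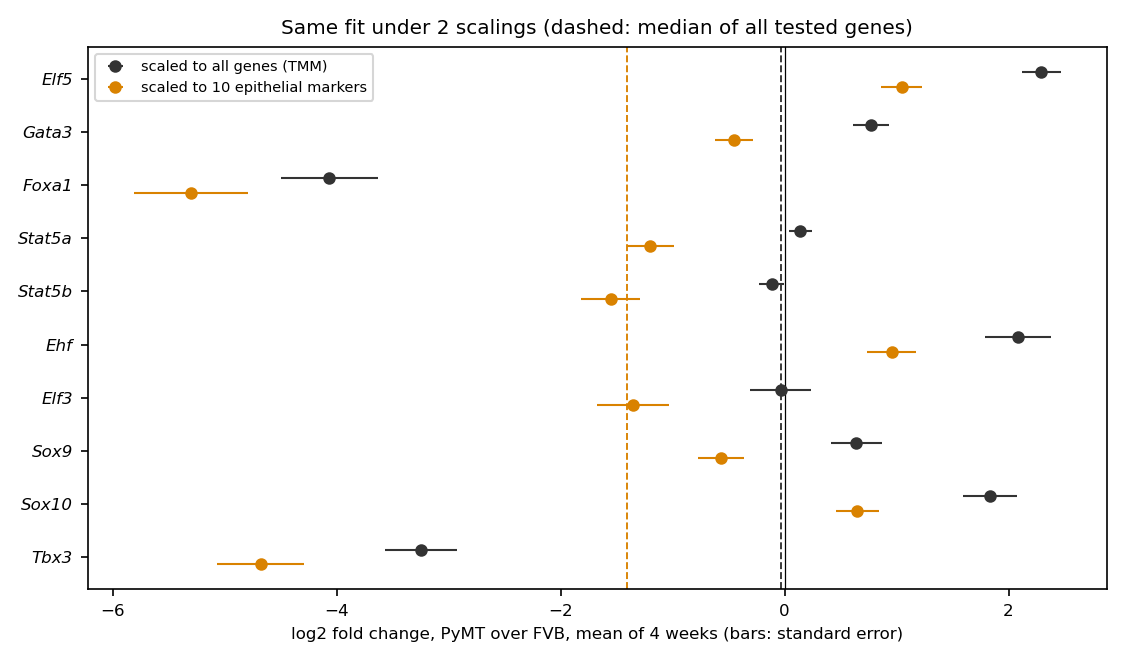
Log2 fold change of PyMT over FVB over the mean of 4 weeks (bars are SE) scaled to all genes (black) and to 10 epithelial markers (orange), with the median of all tested genes dashed in each color (-0.028 and -1.41). Foxa1 and Tbx3 lie left of both medians and Elf5, Ehf and Sox10 right of both.

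In single samples, the log2 level of Foxa1 minus the mean log2 level of the markers was -9.92 to -4.51 in the PyMT samples with a Foxa1 count and -1.73 to -0.050 in FVB samples. For Tbx3 it was -6.85 to -3.46 in PyMT and -1.71 to 0.40 in FVB samples. Neither overlapped. The same measure overlapped between genotypes for Elf5 (0.40 to 1.60 in PyMT, -0.49 to 0.54 in FVB), Ehf (1.17 to 2.23 and -0.23 to 1.74) and Sox10 (-0.74 to 0.41 and -1.64 to 0.13).

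Genes of the programs these factors belong to were read over the mean of the 4 weeks. Of the hormone-sensing list 8 of 10 genes were tested, and 7 fell and 1 rose, beside the shares of all genes given above. Esr1, the estrogen receptor, had a log2 fold change of -2.46 ± 0.13, with a normalized count of 179 to 373 in PyMT and 1116 to 2494 in FVB samples. Pgr, the progesterone receptor, stood at -3.95 ± 0.51 and Areg, the epidermal growth factor family ligand amphiregulin, at -5.04 ± 0.57 (adjusted p = 1.62e-06 and 2.55e-07). Ly6a fell by 1.86 on the log2 scale, and Prom1 rose by 1.21. Genes of this list are also used outside the epithelium, and all 8 fibroblast, all 8 endothelial and all 8 adipocyte markers fell too. Their part in the fall of Foxa1, Tbx3 and this list was not tested.

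Of 10 milk and secretory genes 8 were tested, and 7 rose and none fell. By week 7, 4, 6 and 3 of the 8 rose at weeks 6, 8, 10 and 12, and their log2 fold changes had medians of 5.21, 3.22, 4.72 and 0.77. The change of the difference from week 6 to week 12 was negative for all 8 (median -2.58), and 0 of 8 passed in edgeR (adjusted p of 0.923 or more). At an unadjusted p below 0.05 there were 6 of 8, beside 4.63% of all tested genes. Both genotypes entered this change. Week 12 against week 6 had a median of -1.97 within PyMT samples (0 of 8 positive) and of 1.37 within FVB samples (7 of 8 positive), and 0 of 8 passed in either. Csn3, kappa casein, had a normalized count of 24887 to 47101 in PyMT and 194 to 4076 in FVB samples (log2 fold change 4.67 ± 0.31, adjusted p = 1.13e-10). Lalba, the alpha-lactalbumin of lactose synthesis, stood at 6.18 ± 0.66 (adjusted p = 1.06e-07). Wap, whey acidic protein, had 206 to 5236 normalized counts in PyMT samples, while 6 FVB libraries were at 0 and the highest FVB value was 11.6. Beside Elf5, Stat5a and Stat5b, 10 genes for STAT5 inputs and feedback were tested, and 1 rose and 2 fell. These counts lay near the shares of all tested genes, 8.70% higher and 17.5% lower. The growth hormone receptor Ghr had a log2 fold change of -2.88 ± 0.16 and the prolactin receptor Prlr of -1.21 ± 0.13 (adjusted p = 1.73e-11 and 8.43e-08), and Erbb4, a receptor that also activates STAT5, of 1.06 ± 0.41 (adjusted p = 0.0349). By week Erbb4 stood at 0.033 ± 0.47 in week 6, -0.18 ± 0.80 in week 8, 2.38 ± 1.06 in week 10 (adjusted p = 0.175) and 2.05 ± 0.36 in week 12 (adjusted p = 0.00425), and its change of the difference from week 8 to week 10, 2.54 ± 1.16, did not pass (adjusted p near 1). The feedback genes Cish (-0.67 ± 0.30, adjusted p = 0.0703) and Socs2 (0.27 ± 0.23, adjusted p = 0.351) did not pass. Ghr is also abundant in adipocytes, whose markers fell.

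Of 8 luminal progenitor genes 3 rose, Ltf, lactoferrin (2.94 ± 0.51), Cxcl1, a chemokine (2.47 ± 0.92), and Tspan8 (1.18 ± 0.35), and none fell. Cxcl1 was near the floor, with 7 FVB libraries at 0 and a median normalized count of 24.6 in PyMT samples. Tspan8 stood at -0.59 ± 0.68 at week 6. Log2 fold changes were positive for 6 of the 8 (median 0.97). Scaled to the 10 epithelial markers, 1 of the 8 rose and 2 fell (median -0.38). Of all tested genes 1.96% rose and 67.3% fell under that scaling (median -1.41). Aldh1a3 and Itga2 had lower medians in PyMT (136 and 155) than in FVB samples (223 and 217). The receptor Kit was at 0.92 ± 0.14, under the threshold of 1. Of 10 basal markers 7 fell, among them the contractile genes Acta2, Myh11 and Cnn1, while Krt14 (0.21 ± 0.35), Krt5 (0.000085 ± 0.32) and the basal factor Trp63 (-0.10 ± 0.20) did not pass. Of 10 epithelial markers 7 rose, with Epcam at 2.04 ± 0.16, and Krt7, Krt19 and Cldn4 were not among them. Of 6 macrophage markers 1 fell, the scavenger receptor Cd163 (-2.15 ± 0.37). Without the epithelial scaling, 8.70% of all tested genes rose and 17.5% fell.

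**Figure D5:**
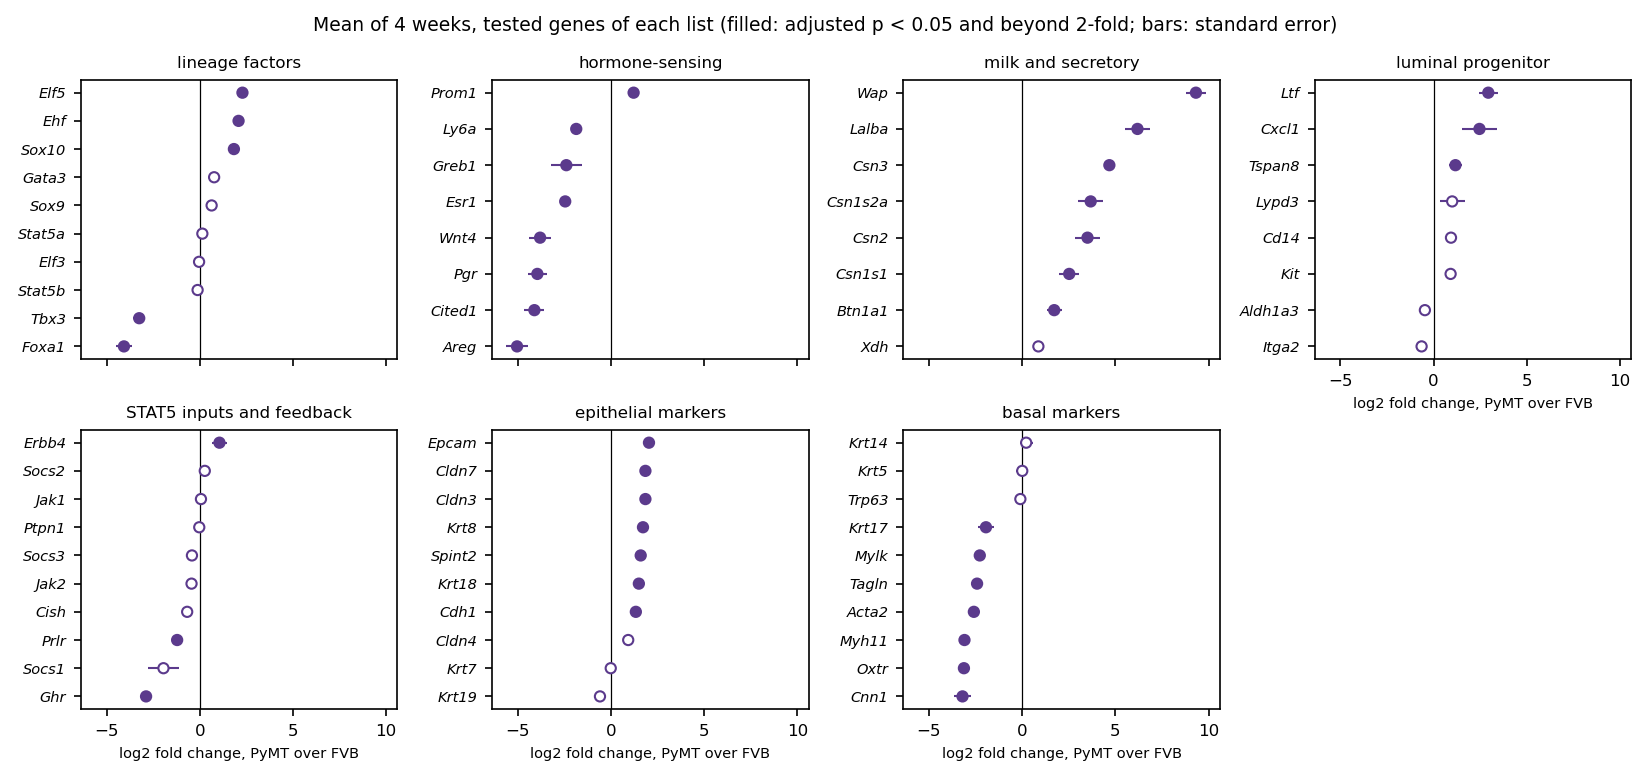
Log2 fold change of PyMT over FVB over the mean of 4 weeks (bars are SE) for the 10 lineage factors and the tested genes of 6 lists, filled where the adjusted p was under 0.05 and the change beyond 2-fold. Of 8 hormone-sensing genes 7 lie left of 0, all 8 milk and secretory genes lie right of it, and the contractile genes of the basal list lie left.

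Of 22 other transcription factors of the mammary lineages 8 rose and 4 fell, and 2 of the 22 are also on other lists, Trp63 as a basal marker and Sox4 as a relative. The 3 with the smallest p among those that rose were Xbp1, a factor of secretory cells (log2 fold change 2.30 ± 0.10), Id2, an inhibitor of helix-loop-helix proteins (2.89 ± 0.18), and Hey1, a Notch target (2.49 ± 0.33). Klf4 (-2.45 ± 0.25), Myb (-1.35 ± 0.23) and Snai2, a basal factor (-2.32 ± 0.42), had the smallest p among those that fell. Of 30 relatives of the 10 factors in the ETS, GATA, STAT, forkhead, SOX and T-box families, 24 were tested, and 2 rose and 9 fell. The ETS genes Etv1 (3.22 ± 0.26) and Etv5 (2.14 ± 0.19) rose, and Ets1 (-1.10 ± 0.11), Elf4 (-1.61 ± 0.17) and Sox18, an endothelial factor (-2.87 ± 0.43), fell. Over all tested genes 8.70% rose and 17.5% fell by the same rule. Scaled to the 10 epithelial markers, 1 of the 22 factors rose and 7 fell, and 1 of the 24 relatives rose and 16 fell. Shares of all tested genes were 1.96% and 67.3% there.

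By the root mean square difference (RMS) of centred log2 group means over the 8 groups, the gene most like Elf5 was Fam3c (RMS 0.092), followed by the forkhead gene Foxc1 (0.14). Those most like Foxa1 were Lims2 (0.18) and Ankrd5 (0.23), and those most like Tbx3 were Sox18 (0.23) and Angptl2 (0.24). Sox10 was most like Wwc1 (0.12) and the tight junction gene Cldn7 (0.13), an epithelial marker above. The nearest genes were Ercc6l (0.12) and Rab11fip4 (0.15) for Ehf, Btbd11 (0.091) and Aftph (0.10) for Gata3, and Cgnl1 (0.053) and Dync2h1 (0.077) for Sox9. They were Taf2 (0.051) and Smad3 (0.067) for Stat5a and Sgk1 (0.060) and B230219D22Rik (0.069) for Stat5b, and Elf3, with a mean normalized count under 100, was left out. Among the 10 factors themselves the closest pairs were Gata3 and Sox9 (0.19), Stat5a and Stat5b (0.21), Ehf and Sox10 (0.26) and Elf5 and Sox10 (0.29), while Foxa1 and Tbx3 were 0.87 apart.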

How the data were processed

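RNA of snap-frozen mammary tissue was depleted of ribosomal RNA and sequenced on a directional protocol. The values deposited by the authors are raw counts per Ensembl gene, unnormalized, with 1 column per sample. They came from HTSeq after adapter trimming and alignment with GSNAP to mm9. Symbols, coordinates and exon lengths came from GENCODE M1 on mm9, and promoters from RefSeq. The 10 genes and all lists were chosen with earlier results of these data known. Groups followed genotype and week in the labels.

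Weekly comparisons used the 6 samples of that week and all others the 24 samples in 8 groups, with edgeR 4.0.16 in R 4.3.3 (quasi-likelihood test, TMM, Benjamini-Hochberg adjustment over the 14918 genes that reached a CPM of 1 in 12 samples or more). Called genes had an adjusted p under 0.05 and, for PyMT against FVB, a log2 fold change beyond 1. SE is the fold change over the square root of F. Normalized counts used DESeq2 1.42.0 size factors, on the log2 scale with 1 added. Named beyond the 10 genes were up to 3 genes of each list in each direction with the smallest p and the 2 genes nearest to each factor whose mean normalized count reached 100. Genes named outside that rule, such as Pgr, Kit, Cish and the markers, were chosen after their values were seen. Some Schwann cell markers are not reported here. Total counts of 6969375 to 13516601 per sample limited the precision, and in 13 libraries the packets of counts may have limited it further. SE of the weekly comparisons came from fits of the 6 samples of that week, and those of all others from the 24 samples in 8 groups. Chi-square per gene between replicates was 19.3 to 244 over 24 pairs, so none was a copy. The method was tested on simulated counts with known changes. These held no packets and no difference in tissue makeup, so the effect of those features was not tested there. Alternatives were DESeq2, RLE and library size scaling, no filter, a replicate block, counts divided by packet size, 1 fit of all samples, each library left out, and the subsets named below.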

Additional observations from a re-analysis of the deposited data

How the results depend on the processing

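Of 2340 values of single genes under alternative settings, 2282 kept direction and side of the threshold, 29 lost and 24 gained a call, and 5 reversed. Another 61 changes of sign, of uncalled values within 1 SE of 0, are counted as kept. Many of the values come from the changes of the difference and the comparisons within a genotype. There 0 of the 10 genes passed, and a value could hardly change side of the threshold. Calls near the threshold moved more often, and Sox10 at week 10 kept its call in 6 of 13 settings. Over the 4 weeks, 5 genes passed under each alternative other than library size scaling (6, with Gata3) and the 2 subsets below, both chosen after seeing the data. The 5 calls also held without the 4 FVB libraries richest in muscle RNA. In the 11 libraries without packets the contrast used weeks 8 and 12 alone, and replicate 3 was the only FVB library of week 8. The 5 genes kept their direction there, and only effect sizes are read from that subset. The count rose from 3 to 5 at week 6 (Ehf and Tbx3 added) and at week 8 (Ehf and Sox10 added) with DESeq2, with counts divided by packet size and with no filter. At week 10 leaving out 1 library gave 3 to 6. The cause was not tested. Library size scaling raised the median of all genes by 0.27, 0.24, 0.29 and 0.32 at weeks 6, 8, 10 and 12.

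The reversed values were Stat5b over the 4 weeks with library size scaling (0.20), in the 11 libraries without packets (0.0030) and without the 4 muscle-rich libraries (0.098), and Tbx3 without PyMT week 6 replicate 3 in the change of the difference from week 6 to 12 (0.051) and in PyMT week 12 against week 6 (0.058). Without any 1 of the libraries these 2 values ran from -1.87 to 0.051 and from -1.86 to 0.058. Of 12 same-numbered PyMT and FVB pairs 4 deviated together with r above 0.1 (r -0.025 to 0.18, against -0.13 to 0.091 for other pairs). Of 12 PyMT samples 6 correlated best with their own number. Packets were more common in replicate 2 than in replicate 3 libraries. The labels name no shared animal or batch, so the main fits did not pair the samples. Whether same-numbered samples shared a batch was not tested. The replicate block left 5 genes over the 4 weeks. It took the call from Foxa1 at week 8 (adjusted p = 0.0568) and Sox10 at week 10 (adjusted p = 0.0548), and gave one to Ehf at week 6 (adjusted p = 0.0456) and in the epithelial scaling (1.01). Low counts limit Foxa1 and Tbx3 in PyMT samples, where the packet size of a library, up to 25 counts, can exceed the whole value.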
